A study of Mus musculus with 12 samples.

Results

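The genes described here are 42 genes of autophagy, mitophagy, the lysosome and the vacuolar proton pump, measured in mouse hearts by RNA sequencing. They were chosen by name, for what their products do, out of 55453 gene symbols with a count in each library. All 42 were found in the tables, and all 42 passed the filter on low counts, which left 14757 genes to test. They comprise 4 genes of autophagy initiation and nucleation, 4 of the conjugation machinery, 5 of the LC3 and GABARAP family, 4 cargo receptors, 4 mitophagy genes, 3 transcription factors, 8 lysosomal genes, 6 subunits of the V1 part of the proton pump, and 4 of its V0 part and accessory proteins.

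The 12 libraries came from whole-heart polyadenylated RNA of C57BL/6J mice, with 3 mice in each of 4 groups. The groups are PDE10A knockout (KO) mice given doxorubicin (DOX), KO mice given vehicle, PDE10A wild-type (WT) mice given DOX, and WT mice given vehicle. DOX is a chemotherapy drug of the anthracycline class with known cardiac toxicity, and PDE10A is an enzyme that hydrolyses the cyclic nucleotides cAMP and cGMP. The series asks what DOX and the lack of PDE10A each do to the heart transcriptome. Per the labels' protocols, mice of either sex received 15 mg/kg DOX as 1 intraperitoneal dose and were studied 7 days later. The protocols also describe pretreatment with the PDE10A inhibitor TP-10 or its DMSO and cyclodextrin vehicle, and no library used here is labelled with TP-10. Neither the age of the mice nor the way the KO allele was made is given in the labels. Mice are named by the numbers in the library titles, which are 18, 19 and 20 for KO DOX, veh_3393, veh_3394 and veh_3395 for KO vehicle, 21, 22 and 24 for WT DOX, and 1, 2 and 3 for WT vehicle. Values for a group are listed in that order.

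Library totals ranged from 23846398 to 32921876 counts. Levels are given as CPM, counts scaled to a common library total. Pde10a itself had 8.27, 8.49 and 9.09 CPM in hearts labelled KO and given DOX, against 2.7, 2.08 and 1.79 CPM in WT DOX hearts. Under vehicle it had 9.31, 11.9 and 9.13 CPM in hearts labelled KO, against 3.38, 1 and 1.86 CPM in WT hearts. The whole-gene count was thus higher in the libraries labelled KO (log2 1.98, adjusted p = 0.0243 under DOX, and log2 2.30, adjusted p = 0.0047 under vehicle, by edgeR's quasi-likelihood test). It cannot show which exons were transcribed, and "KO" stands for the label throughout. The 10 cardiomyocyte markers were present in every library, summing to between 66387 and 91919 CPM. KO DOX mouse 18 and KO vehicle mouse veh_3394 stood apart with 1706 and 2270 CPM of summed atrial markers, against 64.7 to 262 CPM in the other 10 libraries.

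Autophagy delivers cytoplasm, protein aggregates and damaged mitochondria to the lysosome. A kinase complex around ULK1 starts the growth of a membrane, a ubiquitin-like conjugation system attaches LC3 and GABARAP proteins to it, and cargo receptors such as p62 tether cargo to those proteins. The closed autophagosome fuses with a lysosome, whose acid hydrolases work at the low pH set by the vacuolar H+-ATPase (V-ATPase). TFEB, TFE3 and MITF are related transcription factors that bind an E-box type of motif near the start of many lysosomal and autophagy genes. Cardiomyocytes divide rarely and depend on this pathway to renew their mitochondria and proteins.

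The letters CACGTG, the core of the E-box that this family of factors binds, were looked for in the 250 bases before and 50 bases after each gene start in RefSeq on GRCm38.p6. The motif reads the same on both strands. Of the 42 genes, 32 matched an entry, and 11 of those (34.4%) held the motif, against 2187 of 27025 genes (8.09%) with an entry. The 11 were Atg5, Atg7, Atp6v0b, Atp6v0d1, Atp6v1a, Bnip3, Ctsd, Ctsl, Gaa, Lamp1 and Mcoln1. The longer palindrome TCACGTGA, of 8 bases, which contains the first motif, was found in 4 of 32 (12.5%), against 304 of 27025 (1.12%). A palindrome of 10 bases that contains both was found in 0 of 32, against 100 of 27025 (0.37%). The share was thus above that of all genes for the 2 shorter strings. The longest, at 0.37% of all genes, is too rare for 32 genes to show an excess or the lack of one. Each of the next lines shows the strand of the gene, 5′ to 3′, with CACGTG in capitals and 10 bases on each side. The first 4 are the genes with the 8-base palindrome. Lamp1 is shown because its window held 4 copies of the first motif. Atg7 is shown as the 1 gene with the first motif among those called for DOX in WT.
Mcoln1, chr8:3500464-3500489, plus strand: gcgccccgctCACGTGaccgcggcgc
Ctsd, chr7:142387910-142387935, minus strand: gcccgcgtctCACGTGacccgttgag
Atp6v1a, chr16:44139375-44139400, minus strand: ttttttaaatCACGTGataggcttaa
Atp6v0d1, chr8:105566052-105566077, minus strand: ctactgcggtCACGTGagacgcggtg
Lamp1, chr8:13159090-13159115, plus strand: ggcaagatatCACGTGgtccagcgcc
Lamp1, chr8:13159106-13159131, plus strand: gtccagcgccCACGTGatgccgactg
Lamp1, chr8:13159123-13159148, plus strand: tgccgactggCACGTGaccacatcac
Lamp1, chr8:13159136-13159161, plus strand: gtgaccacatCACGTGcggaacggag
Atg7, chr6:114670954-114670979, plus strand: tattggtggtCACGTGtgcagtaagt
A match is a string of letters, not a measured binding site.

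Lamp2, the gene with the clearest DOX response in WT hearts (below), had no CACGTG in its window. The 250 bases before its RefSeq start, which lies 6 bases from its GENCODE start, are shown here because this is the promoter of the gene the results turn on.
Lamp2, chrX:38456461-38456710, minus strand: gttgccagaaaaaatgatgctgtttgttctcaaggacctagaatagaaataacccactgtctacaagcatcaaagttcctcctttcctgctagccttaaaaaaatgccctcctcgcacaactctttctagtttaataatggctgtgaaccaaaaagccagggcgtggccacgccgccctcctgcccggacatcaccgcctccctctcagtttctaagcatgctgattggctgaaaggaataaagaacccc
The absence of a match says only that those letters are not in the window.

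Levels of the 42 genes spanned a wide range. Per kilobase of annotated exon and averaged over the 12 libraries, the most abundant transcripts were Map1lc3a (292 CPM per kb), the mitophagy kinase gene Pink1 (240), the cathepsin D gene Ctsd (227), the lysosomal membrane protein gene Lamp1 (175), the p62 gene Sqstm1 (128) and Gabarap (104). The least abundant were Tfe3 (1.73 CPM per kb), Atg7 (2.08), the pump subunit gene Atp6v1h (2.6), the lysosomal calcium channel gene Mcoln1 (3.16) and Atp6v1a (3.22). Among V1 subunits the level per length ran from 2.6 (Atp6v1h) to 24 (Atp6v1e1) CPM per kb, and among V0 and accessory genes from 15.5 (Atp6v0a1) to 43.3 (Atp6ap1). Annotated exon length counts every exon of a gene, so genes with rarely used exons appear lower. Across the 12 libraries the highest CPM exceeded the lowest by 3.49-fold for Sqstm1, 2.89-fold for the mitophagy receptor gene Bnip3, 2.19-fold for Lamp2, 2.11-fold for the cathepsin L gene Ctsl and 2.05-fold for Gabarapl1. The ratio was 1.15 for Atp6ap1 and 1.18 for Becn1, the lowest of the 42.

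**Figure D1:**
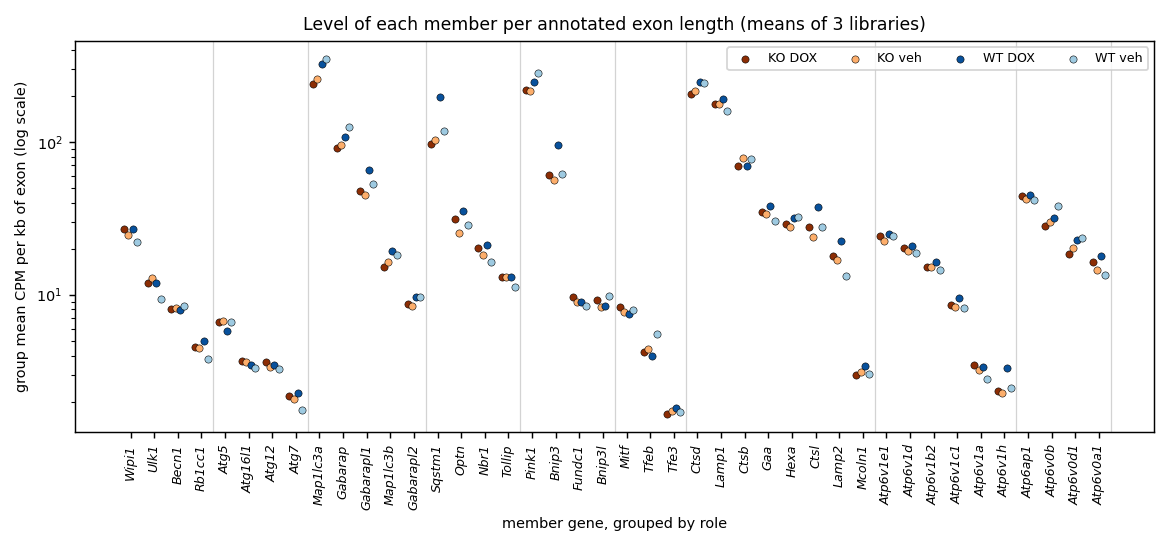
Mean level of each of the 42 genes per annotated exon length, in CPM per kb on a log axis, with 1 point for each of the 4 groups (mean of 3 libraries) and genes grouped by role. Map1lc3a, at 292 CPM per kb on average, sits at the top and Tfe3, at 1.73, at the bottom, and for most genes the 4 groups lie close together on this scale.

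In WT hearts given DOX, 3 of the 42 genes rose and 1 fell relative to WT vehicle hearts. Lamp2, a lysosomal membrane protein whose loss causes a cardiomyopathy with autophagic vacuoles, rose 1.7-fold. Atg7, the E1-like enzyme of the conjugation system, rose by 29.8%, and Atp6v0a1, a membrane subunit of the proton pump, rose by 34%. Tfeb, the transcription factor gene of the lysosomal program, fell by 28.5%. These 4 genes are 9.52% of the 42, and 18.6% of all genes tested passed in this comparison, 9.39% higher and 9.2% lower. The median log2 fold change of the 42 was 0.13 (range -0.48 to 0.77), and that of all genes tested was 0.00. Of the 42, 29 had a positive and 13 a negative value. The DOX and vehicle libraries did not overlap for 12 of the 42 (28.6%), 10 higher and 2 lower, while they did not overlap for 32.6% of all genes tested (16.8% higher and 15.8% lower). The share of the 42 that passed was thus below the share of all genes. An unadjusted p below 0.05 was found for 15 of the 42 (5321 of 14757 genes).

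Lamp2 had 177, 180 and 158 CPM in KO DOX hearts, 157, 160 and 165 CPM in KO vehicle hearts, 170, 245 and 229 CPM in WT DOX hearts, and 138, 112 and 128 CPM in WT vehicle hearts. Every WT DOX heart lay above every WT vehicle heart, with mouse 21 closest to them, and the KO hearts of both treatments lay between the WT vehicle hearts and WT DOX mice 22 and 24. The log2 fold change for DOX in WT was 0.77 (SE 0.13, adjusted p = 0.0099 by edgeR's quasi-likelihood test). It ranged from 0.67 to 0.91 when each library was left out in turn, and the call held in all 12 of those fits. The call was lost in a fit of the WT libraries alone (adjusted p = 0.0795). Lamp2 lies on chromosome X from 38401357 to 38456454 on the minus strand (GENCODE M21, GRCm38).

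Atg7 had 14.6, 16.9 and 14.1 CPM in KO DOX hearts, 15.5, 14 and 14.2 CPM in KO vehicle hearts, 14.7, 17.3 and 15.7 CPM in WT DOX hearts, and 12.1, 12.5 and 12.1 CPM in WT vehicle hearts. The 3 WT vehicle hearts were the lowest of the 12, so the WT groups did not overlap. The log2 fold change was 0.38 (SE 0.10, adjusted p = 0.0311 by edgeR's quasi-likelihood test). Atg7 lies on chromosome 6 from 114643097 to 114860614. The RefSeq start whose window held the motif lies 27999 bases from the GENCODE start of the gene, so it belongs to a transcript that begins inside the gene.

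Atp6v0a1 had 105, 104 and 111 CPM in KO DOX hearts, 96.8, 92 and 95.9 CPM in KO vehicle hearts, 96.6, 114 and 141 CPM in WT DOX hearts, and 92.6, 80.5 and 89.9 CPM in WT vehicle hearts. The DOX hearts lay above the vehicle hearts of the same genotype in WT and in KO. The log2 fold change in WT was 0.42 (SE 0.12, adjusted p = 0.0357 by edgeR's quasi-likelihood test). The gene lies on chromosome 11 from 101009452 to 101063719.

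Tfeb had 23.6, 22.4 and 25.3 CPM in KO DOX hearts, 25.9, 25.9 and 23.6 CPM in KO vehicle hearts, 23, 22.3 and 22.4 CPM in WT DOX hearts, and 26.2, 37.3 and 31 CPM in WT vehicle hearts. WT vehicle hearts were the highest of the 4 groups and the most spread, and the other 3 groups lay within 22.3 to 25.9 CPM. The log2 fold change in WT was -0.48 (SE 0.12, adjusted p = 0.0212 by edgeR's quasi-likelihood test). Tfeb lies on chromosome 17 from 47737030 to 47792419, 38750 kb from Pde10a. Its relatives Tfe3 (log2 0.10) and Mitf (log2 -0.10) did not pass.

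The calls of Atg7, Atp6v0a1 and Tfeb were lost when WT DOX mouse 22 or 24 or WT vehicle mouse 2 or 3 was left out, which left Lamp2 as the 1 gene called. Over all genes the share that passed was then 1.22% to 4.92%, against 18.6% with every library. In those 4 fits the log2 values were 0.31 to 0.39 for Atg7, 0.27 to 0.44 for Atp6v0a1 and -0.49 to -0.34 for Tfeb. Atp6v0a1, at an unaltered log2 value of 0.42, also missed the threshold without KO DOX mouse 20 (adjusted p = 0.0551) and without KO vehicle mouse veh_3393 (0.0529) or veh_3395 (0.0533). With each library adjusted for trends with exon length and GC content, a choice made after seeing the data, Lamp2 kept its call (log2 0.51, adjusted p = 0.0185), while Tfeb (log2 -0.37, adjusted p = 0.0521), Atg7 (0.28, adjusted p = 0.0785) and Atp6v0a1 (0.27, adjusted p = 0.124) did not, and Gaa, Lamp1 and Mitf (lower) were called instead.

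**Figure D2:**
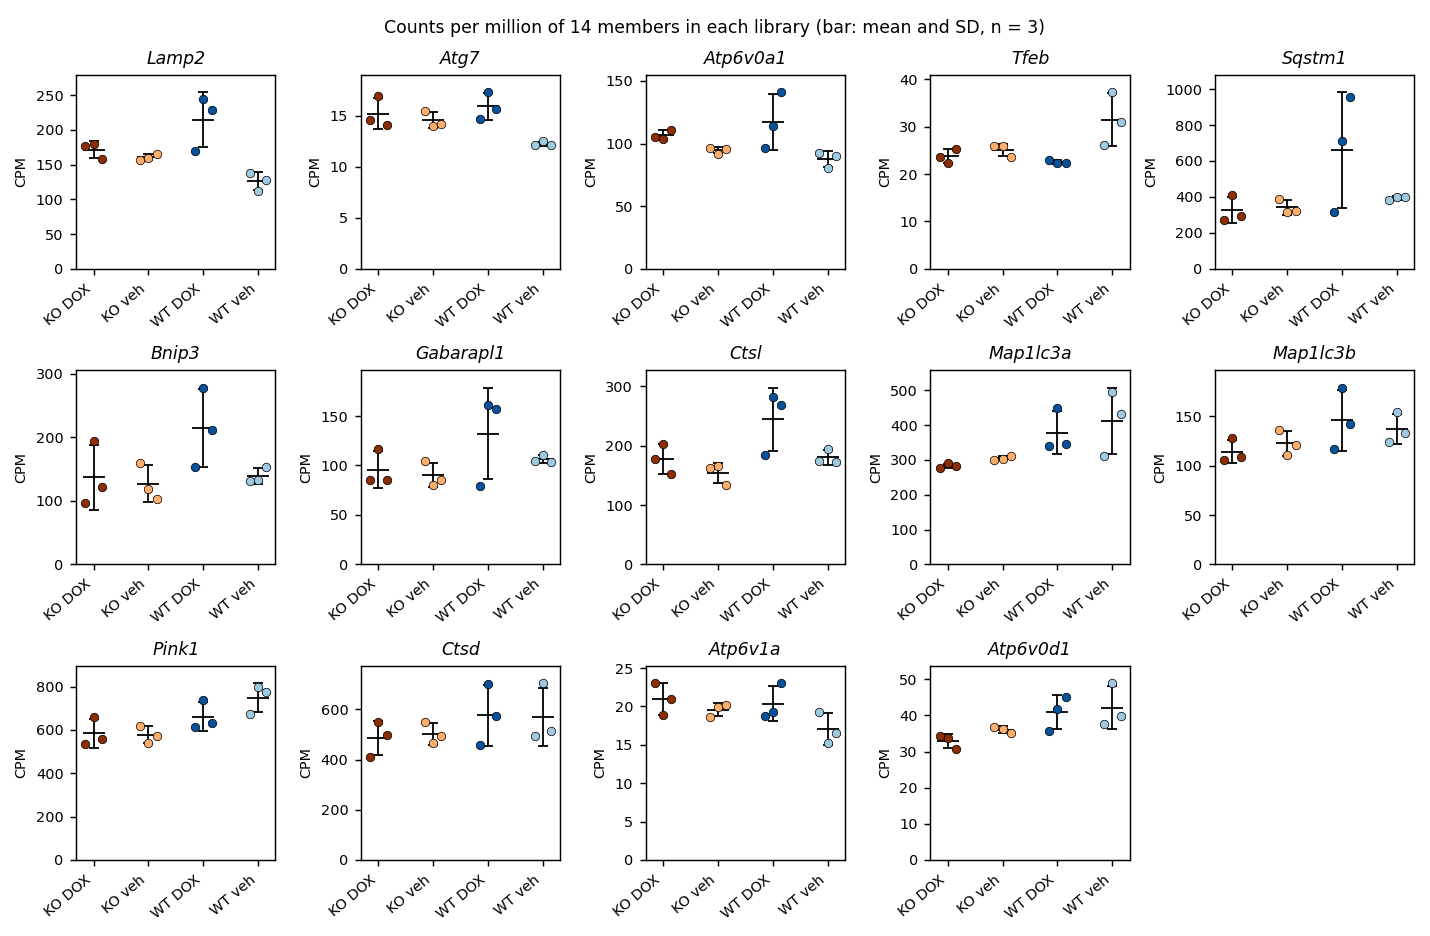
CPM of 14 of the genes in each of the 12 libraries, by group from left to right as KO DOX, KO vehicle, WT DOX and WT vehicle, with the group mean and SD (n = 3) as bars and each vertical axis starting at 0. Lamp2 shows WT DOX hearts at 170 to 245 CPM above WT vehicle hearts at 112 to 138 CPM, and Sqstm1 shows WT DOX mouse 21 (316 CPM) apart from mice 22 and 24 (710 and 955 CPM).

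Of the genes that start autophagy, the kinase gene Ulk1 (log2 0.36, adjusted p = 0.088), its scaffold partner Rb1cc1, also called FIP200 (0.39, adjusted p = 0.0523), and Wipi1, a phosphoinositide-binding protein of the growing membrane (0.28, adjusted p = 0.145), had positive values for DOX in WT that missed the threshold of 0.05 in edgeR's test. Becn1, a subunit of the lipid kinase complex of nucleation, had between 54.5 and 64.2 CPM in all 12 libraries and a log2 value of -0.08. In the conjugation machinery, Atg5, Atg12 and Atg16l1, which together form the complex that attaches LC3 to lipid, had log2 values of -0.19, 0.08 and 0.06. None of these 3 passed.

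The LC3 and GABARAP genes encode the ubiquitin-like proteins that coat the autophagosome. None of the 5 passed for DOX in WT, with a median log2 of -0.01. Map1lc3a had 277, 290 and 283 CPM in KO DOX hearts, 301, 302 and 311 CPM in KO vehicle hearts, 339, 449 and 345 CPM in WT DOX hearts, and 310, 496 and 433 CPM in WT vehicle hearts. Map1lc3b had 106, 128 and 109 CPM in KO DOX hearts, 136, 111 and 121 CPM in KO vehicle hearts, 117, 179 and 142 CPM in WT DOX hearts, and 124, 154 and 133 CPM in WT vehicle hearts. Gabarapl1 had 85, 117 and 85.4 CPM in KO DOX hearts, 104, 80.7 and 85.6 CPM in KO vehicle hearts, 78.9, 161 and 157 CPM in WT DOX hearts, and 105, 111 and 103 CPM in WT vehicle hearts. For Map1lc3a and Map1lc3b the WT DOX and WT vehicle hearts overlapped over most of their range. For Gabarapl1, WT DOX mouse 21 lay below every WT vehicle heart and mice 22 and 24 lay above them (log2 0.32, SE 0.23, adjusted p = 0.328). Exons of Map1lc3b overlap those of Zcchc14 on the opposite strand, which had 12034 counts over all libraries against 42065 for Map1lc3b, and the strand setting of the counting is not given.

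All 4 cargo receptor genes had positive values for DOX in WT, with a median log2 of 0.33, and none passed. Sqstm1 encodes p62, which binds ubiquitinated cargo and LC3. It had 274, 408 and 294 CPM in KO DOX hearts, 389, 316 and 319 CPM in KO vehicle hearts, 316, 710 and 955 CPM in WT DOX hearts, and 383, 398 and 400 CPM in WT vehicle hearts. WT DOX mice 22 and 24 held the highest values of the 12, and mouse 21 lay below all 3 WT vehicle hearts. The log2 fold change of 0.75 had an SE of 0.29 and an adjusted p = 0.0911 in edgeR's test, and it was 1.08 with mouse 21 left out. Nbr1 (log2 0.36, adjusted p = 0.0722), Optn (0.30, adjusted p = 0.202) and Tollip (0.20, adjusted p = 0.156) encode other receptors that bind ubiquitinated cargo.

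Among mitophagy genes, the outer-membrane receptor gene Bnip3 had 96, 194 and 121 CPM in KO DOX hearts, 160, 118 and 103 CPM in KO vehicle hearts, 154, 278 and 212 CPM in WT DOX hearts, and 131, 133 and 154 CPM in WT vehicle hearts. WT DOX mouse 21 and WT vehicle mouse 3 were nearly equal, with the DOX heart the higher, and the log2 value of 0.63 (SE 0.26) missed the threshold (adjusted p = 0.107). Its paralog Bnip3l, or NIX, differed the other way (log2 -0.23, adjusted p = 0.0932). Pink1, a kinase that marks damaged mitochondria for removal, had 534, 661 and 559 CPM in KO DOX hearts, 617, 540 and 574 CPM in KO vehicle hearts, 611, 737 and 634 CPM in WT DOX hearts, and 672, 796 and 777 CPM in WT vehicle hearts. Its WT groups overlapped (log2 -0.18, adjusted p = 0.29). The receptor gene Fundc1 had a log2 value of 0.09.

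Of the 8 lysosomal genes, 1 rose (Lamp2) and the other 7 did not pass. The WT groups did not overlap for Lamp1, a major glycoprotein of the lysosomal membrane, at 451 to 539 CPM in WT DOX hearts and 412 to 435 CPM in WT vehicle hearts (log2 0.26, adjusted p = 0.0629). Mcoln1 had a log2 value of 0.17 (adjusted p = 0.224), also without overlap but by a narrow margin. WT DOX mouse 21 and WT vehicle mouse 2 both rounded to 23.5 CPM, with the DOX heart the higher. Ctsl, a cysteine protease, had 178, 203 and 153 CPM in KO DOX hearts, 163, 165 and 134 CPM in KO vehicle hearts, 184, 282 and 268 CPM in WT DOX hearts, and 174, 195 and 172 CPM in WT vehicle hearts. Ctsd, an aspartyl protease, had 412, 548 and 496 CPM in KO DOX hearts, 550, 466 and 492 CPM in KO vehicle hearts, 458, 701 and 573 CPM in WT DOX hearts, and 495, 704 and 512 CPM in WT vehicle hearts. Ctsl in WT DOX mice 22 and 24 exceeded every WT vehicle heart while mouse 21 lay among them (log2 0.44, adjusted p = 0.0705), and the WT groups of Ctsd covered the same range (log2 0.02, SE 0.18). Gaa, the glycogen-degrading acid alpha-glucosidase whose deficiency is Pompe disease, had a log2 value of 0.32 (adjusted p = 0.106). Ctsb (-0.14) and Hexa (-0.02) had values below 0.

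The V-ATPase has a cytosolic V1 part that splits ATP and a membrane V0 part that carries protons. All 6 V1 genes had positive values for DOX in WT, from 0.05 (Atp6v1e1) to 0.42 (Atp6v1h, adjusted p = 0.0558), with a median of 0.20, and none passed. The WT groups did not overlap for Atp6v1h or for Atp6v1c1 (log2 0.22, adjusted p = 0.0749). Atp6v1a, the catalytic subunit gene, had 23, 18.9 and 21 CPM in KO DOX hearts, 18.6, 19.9 and 20.2 CPM in KO vehicle hearts, 18.8, 19.3 and 23 CPM in WT DOX hearts, and 19.3, 15.2 and 16.6 CPM in WT vehicle hearts. Its WT groups overlapped through WT vehicle mouse 1 (log2 0.26, SE 0.12, adjusted p = 0.146). The V0 genes were not uniform. Beside Atp6v0a1, which rose, Atp6v0b had a log2 value of -0.25 (adjusted p = 0.208) and Atp6v0d1 one of -0.04. Atp6v0d1 had 34.3, 33.8 and 30.7 CPM in KO DOX hearts, 36.9, 36.1 and 35.1 CPM in KO vehicle hearts, 35.8, 41.7 and 45.2 CPM in WT DOX hearts, and 37.6, 48.9 and 39.8 CPM in WT vehicle hearts. For Atp6v0d1 the KO DOX hearts were the lowest 3 of the 12. Atp6ap1, an accessory protein of the pump, had 134 to 137 CPM in WT DOX hearts and 119 to 131 CPM in WT vehicle hearts (log2 0.11, adjusted p = 0.318).

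Genes with and without CACGTG near the start can be set beside each other. The 11 genes that held it had a median log2 value of 0.26 for DOX in WT, with 1 called, and the 21 matched genes without it had a median of 0.11, with 3 called. For DOX in KO the medians were 0.01 and 0.07. With the 8-base palindrome the order in WT was the other way, 0.10 for the 4 genes with it and 0.17 for the 28 without it.

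One WT DOX heart differed from the other 2 across these genes. WT DOX mouse 21 was the lowest of the 3 WT DOX mice for 29 of the 42 genes (69%), against 36.3% of all genes tested, and the highest for 6 (14.3%), against 38.4%. For 9 of the 42 (21.4%), namely Ulk1, Rb1cc1, Wipi1, Gabarapl1, Sqstm1, Nbr1, Tollip, Ctsl and Gaa, mice 22 and 24 lay above every WT vehicle heart and mouse 21 did not, against 9.55% of all genes. In the other direction, mice 22 and 24 lay below every WT vehicle heart and mouse 21 did not for 1 gene, Atg5 (2.38%). That pattern held for 10.1% of all genes. The median log2 distance of the 42 genes from the WT vehicle mean was 0.03 in mouse 21, 0.19 in mouse 22 and 0.24 in mouse 24. That of all genes lay between -0.00 and 0.01 in these libraries, where the scaling of the libraries holds it near 0. Taken without sign, the median distance in mice 21, 22 and 24 was 0.14, 0.22 and 0.31 for the 42 genes. For all genes it was 0.20, 0.30 and 0.31, so mouse 21 lay nearer to WT vehicle over all genes too. Without mouse 21, 15 of the 42 genes passed (35.7%), 14 higher and 1 lower, against 25.6% of all genes. These 15 were Atg7, Atp6v0a1, Atp6v1c1, Atp6v1h, Bnip3, Ctsl, Gaa, Gabarapl1, Lamp1, Lamp2, Nbr1, Rb1cc1, Sqstm1 and Ulk1, all higher, and Tfeb, lower. Without WT vehicle mouse 1 the count was 9 (21.4%, against 27.8% of all genes). It was 1 (2.38%) without WT DOX mouse 22 or 24 or WT vehicle mouse 2 or 3. In those fits 1.23%, 1.22%, 3.43% and 4.92% of all genes passed, in that order. The labels separate these mice by their library titles. The running number that opens each title is highest for WT DOX mouse 21, after those of the KO libraries. Those of mice 22 and 24 directly follow the WT vehicle libraries. The meaning of this order is not given. Some library titles carry a suffix of 1 after their running number, and its meaning is not given. All 3 KO DOX libraries, KO vehicle mice veh_3394 and veh_3395, WT DOX mice 22 and 24 and WT vehicle mouse 1 have it. KO vehicle mouse veh_3393, WT DOX mouse 21 and WT vehicle mice 2 and 3 do not. With the suffix as a term in the fit, Lamp2 and Tfeb (log2 -0.42, adjusted p = 0.0391) passed, while Atg7 (0.37, adjusted p = 0.0529) and Atp6v0a1 (0.36, adjusted p = 0.0722) did not, and 10.8% of all genes passed.

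**Figure D3:**
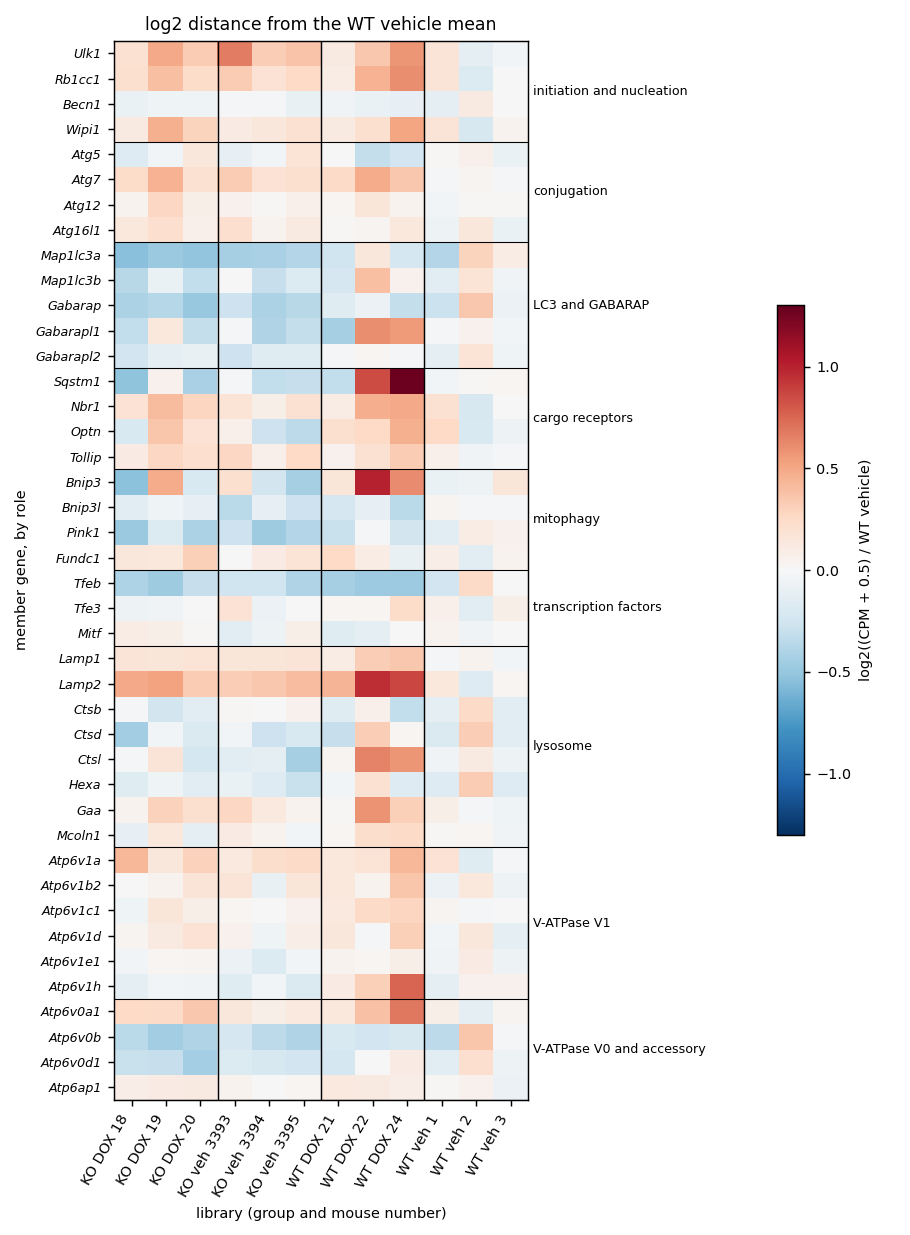
Log2 distance of each of the 42 genes (rows, by role) from the WT vehicle mean, as log2 of (CPM + 0.5), in each library (columns, KO DOX, KO vehicle, WT DOX, WT vehicle), with red above and blue below that mean. WT DOX mice 22 and 24 show deep reds at Sqstm1, Bnip3 and Lamp2, and mouse 24 also at Atp6v1h, and mouse 21 is paler for most genes, with Lamp2 above and Tfeb and Gabarapl1 below the mean.

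Markers of other cells were measured beside these genes, since a heart holds more than cardiomyocytes, and in bulk RNA fewer cells of a type and less RNA per cell cannot be told apart. Macrophages are rich in lysosomes. Their 12 markers were all detected in every library and summed to 339, 372 and 310 CPM in WT DOX hearts and 257, 580 and 330 CPM in WT vehicle hearts, with 1 of 12 higher and 1 lower in edgeR's test. Neutrophil markers summed to 9.99, 41 and 32.9 CPM in WT DOX hearts and 3.25, 4.11 and 4.36 CPM in WT vehicle hearts, and 6 of the 7 tested rose. Mice 22 and 24 thus held the most neutrophil transcript as well as the highest Sqstm1, Lamp2, Ctsl and Gabarapl1. Cardiomyocyte markers summed to 79314, 66387 and 69842 CPM in WT DOX hearts and 81479, 91919 and 81497 CPM in WT vehicle hearts, with 2 of 10 lower, and 4 of 8 endothelial markers were lower. Erythroid markers summed to 0.395, 0.146 and 0.144 CPM in WT DOX hearts and 50.8, 164 and 172 CPM in WT vehicle hearts, and all 5 fell. WT DOX hearts thus held almost no transcript of red blood cells, with 2 or 3 of the 5 markers at 0 in each, and all 5 were detected in each WT vehicle heart. The part of these cells in the changes above was not tested.

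Other genes of the pathway were read from lists of 154 genes, of which 148 were tested. For DOX in WT, 26 rose and 6 fell (21.6% of those tested, against 18.6% of all genes), with a median log2 of 0.12. Of 30 genes of the autophagy machinery 5 rose, among them Atg13 (log2 0.95, adjusted p = 0.0239), a subunit of the ULK1 complex, and Atg9a (0.90, adjusted p = 0.0301), a lipid scramblase on vesicles that seed the membrane, while Atg2b (0.44), a lipid transfer protein, and Stx17 (0.41), a fusion protein of the autophagosome, also rose. The LC3 protease gene Atg4d fell (-0.41, adjusted p = 0.0394). Of 21 genes for selective receptors and mitophagy 8 rose and 0 fell, led by the mitophagy regulator Fbxl4 (0.79, adjusted p = 0.0139), the receptor Bcl2l13 (0.56, adjusted p = 0.0159) and the endoplasmic reticulum receptor Sec62 (0.33). Of 50 further lysosomal genes 5 rose and 2 fell. Those that rose include Galc (0.52), a galactolipid hydrolase, and the acid lipase gene Lipa (0.42), and those that fell were Arsa (-0.35) and Ctsf (-0.39).

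Of 15 further V-ATPase genes tested, 2 rose, Wdr7 (log2 0.48, adjusted p = 0.0204) and Dmxl2 (0.69, adjusted p = 0.0348), which both encode proteins of the rabconnectin complex that helps assemble the pump. Among 32 genes that control mTORC1 and TFEB, 6 rose and 3 fell. The kinase gene Mtor (0.67, adjusted p = 0.0174), the mTORC1 inhibitors Sesn2 (0.61, adjusted p = 0.0215) and Tsc1 (0.60, adjusted p = 0.0266), and Fnip2 (1.26, adjusted p = 0.0335), a partner of folliculin, rose. Lamtor4 (-0.73, adjusted p = 0.0265), Lamtor5 (-0.38) and Lamtor2 (-0.51), 3 subunits of the Ragulator scaffold of the lysosome, fell. Of the other pathway genes, with 149 or 150 tested in each fit, 0 passed without WT DOX mouse 22 (1.23% of all genes) or 24 (1.22%). The count was 4 without WT vehicle mouse 2 (3.43%) and 3 without WT vehicle mouse 3 (4.92%). It was 52 without WT DOX mouse 21 (25.6%) and 51 without WT vehicle mouse 1 (27.8%). Leaving out 1 KO library gave 20 to 27, where 12.8% to 17% of all genes passed.

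In KO hearts, none of the 42 genes passed for DOX against vehicle, where 0.0136% of all genes tested passed (0.00678% higher and 0.00678% lower). By edgeR 0 of the 42 had an unadjusted p below 0.05, and DESeq2 and limma-voom also called 0. The median log2 value was 0.04 (range -0.16 to 0.31), that of all genes was 0.01, and 27 of the 42 were positive. The KO DOX and KO vehicle libraries did not overlap for 5 of the 42, with 2 higher and 3 lower in KO DOX, against 16.3% of all genes (8.27% higher and 8.05% lower). Lamp2, at 177, 180 and 158 CPM in KO DOX hearts and 157, 160 and 165 CPM in KO vehicle hearts, had a log2 value of 0.10 (SE 0.13, 95% interval -0.19 to 0.38). Its interval for DOX in WT was 0.48 to 1.06. Atg7 (log2 0.06), Atp6v0a1 (0.17) and Tfeb (-0.08) had an adjusted p = 0.997 each in KO. The highest value was that of the cargo receptor gene Optn (0.31, SE 0.16, adjusted p = 0.997), with overlapping groups. Of the 148 other pathway genes 0 passed in KO, and 2 had an unadjusted p below 0.05.

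The difference between the DOX effects, KO less WT, was tested directly, and 0 of the 42 passed in edgeR's test, where 0.21% of all genes passed. At an unadjusted p below 0.05 there were 4 of the 42 (2365 of 14757 genes). DESeq2 called 1, Lamp2 (2.38%, against 2.48% of all genes), and limma-voom called 6 (14.3%, against 13.9%). Lamp2 had the smallest p of the 42, with a difference of -0.67 on the log2 scale (SE 0.19, unadjusted p = 0.00346, adjusted p = 0.157, 95% interval -1.08 to -0.27). Sqstm1 had the largest difference, -0.81, with an SE of 0.42 (adjusted p = 0.349). The others with an unadjusted p below 0.05 were Ulk1 (-0.48), Tfeb (0.40) and Bnip3l (0.37). The median of the 42 was -0.11 and that of all genes 0.00, with 27 of the 42 negative. Without WT DOX mouse 21, Lamp2 and Sqstm1 passed (4.76% of the 42, against 3.43% of all genes). So the passing of Lamp2, Atg7, Atp6v0a1 and Tfeb in WT and not in KO is not by itself a difference between the genotypes at the threshold used.

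**Figure D4:**
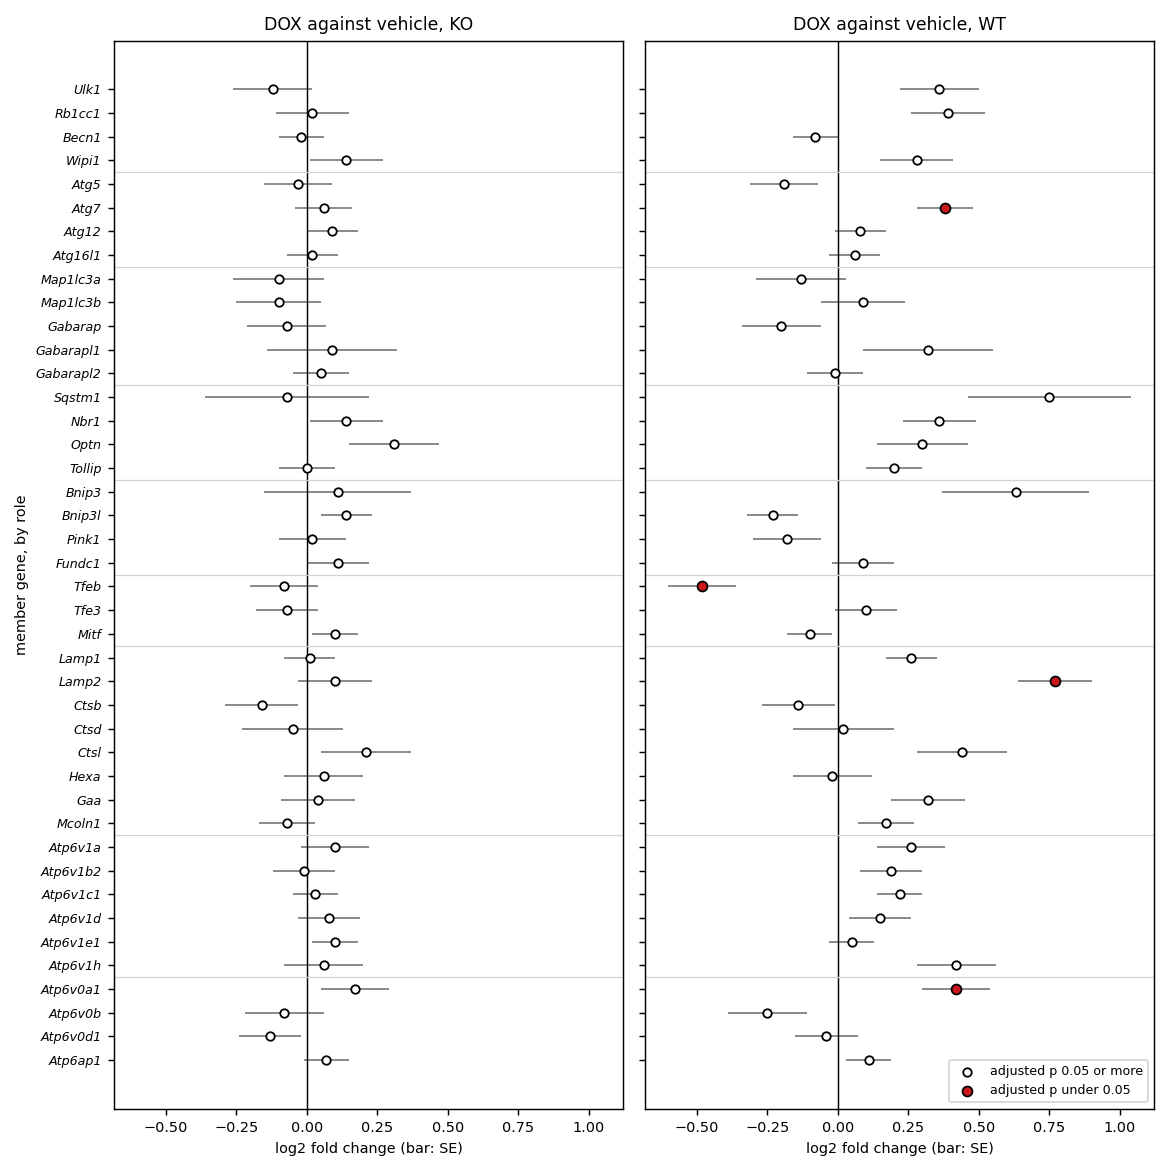
Log2 fold change for DOX against vehicle of each of the 42 genes, by role, in KO hearts (left) and WT hearts (right), with the SE as a bar and red points where the adjusted p was under 0.05. Values in KO lie between -0.16 and 0.31 with no red point, and in WT between -0.48 and 0.77 with Lamp2, Atg7, Atp6v0a1 and Tfeb in red.

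Under vehicle, 0 of the 42 genes passed between KO and WT hearts in edgeR's test, where 2.88% of all genes passed (1.79% higher and 1.09% lower). The unadjusted p was below 0.05 for 9 of the 42 (3844 of 14757 genes). DESeq2 called 3, Map1lc3a, Pink1 and Ulk1 (7.14%, against 11.1% of all genes), and limma-voom called 14 (33.3%, against 35.1%), so none of these shares exceeded that of all genes. The median log2 value was 0.02, equal to that of all genes, with 22 positive and 20 negative. The groups did not overlap for 5 genes with KO higher and 6 with KO lower, against 31.3% of all genes (16.5% higher and 14.8% lower). This comparison shares the WT vehicle libraries with that of DOX in WT.

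By role, all 5 LC3 and GABARAP genes had negative values, from -0.16 (Map1lc3b) to -0.44 (Map1lc3a, SE 0.16, adjusted p = 0.107), with a median of -0.24. Their summed level was 746, 682 and 711 CPM in KO vehicle hearts and 745, 1073 and 903 CPM in WT vehicle hearts, so that WT vehicle mouse 1 lay with the KO hearts. Pink1 (log2 -0.37, adjusted p = 0.0828), Bnip3l (-0.24, adjusted p = 0.121) and Tfeb (-0.33, adjusted p = 0.109) were lower in every KO vehicle heart than in every WT vehicle heart. Ulk1 was higher in every KO vehicle heart, at 96.1, 75.8 and 78.7 CPM, than in WT vehicle hearts at 68.2, 55.3 and 59 CPM (log2 0.46, SE 0.14, adjusted p = 0.0752). Lamp2 (0.35, adjusted p = 0.123), Atg7 (0.25, adjusted p = 0.154), Rb1cc1 (0.26, adjusted p = 0.229) and Lamp1 (0.16, adjusted p = 0.275) were also higher without overlap. Without WT vehicle mouse 1, 6 of the 42 passed (14.3%, against 17.7% of all genes), with Ulk1 higher and Atp6v0b, Gabarap, Map1lc3a, Pink1 and Tfeb lower.

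Values between KO and WT under vehicle went with transcript length. Across the 42 genes, the Spearman correlation of the log2 value with annotated exon length was 0.58, and across 14654 genes with a length it was 0.36. For DOX in WT it was 0.39 across the 42 and 0.35 across all, and for DOX in KO 0.10 and 0.15. Genes are not independent replicates and these are descriptions. Map1lc3a, Gabarap, Gabarapl1 and Gabarapl2 are among the 8 of the 42 with the shortest annotated exons. With trends with exon length and GC content taken out of each library, the log2 values were -0.03 for Map1lc3a, -0.17 for Gabarap, -0.07 for Gabarapl1, -0.12 for Gabarapl2 and -0.29 for Map1lc3b, and the median of the 42 was -0.06. None of the 42 passed in that fit or in the one without the adjustment. RNA quality was not measured.

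Cell markers also differed in this comparison. Endothelial markers summed to 851, 772 and 851 CPM in KO vehicle hearts and 1186, 915 and 1118 CPM in WT vehicle hearts, and 2 of 8 were lower in edgeR's test. Neutrophil markers summed to 11.9, 8.45 and 7.72 CPM in KO vehicle hearts and 3.25, 4.11 and 4.36 CPM in WT vehicle hearts, without overlap, and 1 of the 7 tested was higher. Erythroid markers summed to 253, 130 and 46.5 CPM in KO vehicle hearts and 50.8, 164 and 172 CPM in WT vehicle hearts, with overlap. Their part in the values of the 42 genes was not tested.

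Of the 148 other pathway genes, 3 were higher in KO under vehicle and 0 lower, all with no overlap between the groups. Prkaa2, a catalytic subunit gene of the energy sensor AMPK, had 140, 141 and 152 CPM in KO vehicle hearts and 116, 77.6 and 96.2 CPM in WT vehicle hearts (log2 0.58, adjusted p = 0.0366). Wdr7 had 24.1, 22.8 and 23 CPM in KO vehicle hearts and 19.2, 15.3 and 15.1 CPM in WT vehicle hearts (log2 0.50, adjusted p = 0.0435). One of the 3 calls held in every fit that left out 1 library. The calls of Prkaa2 and Wdr7 did not hold when WT vehicle mouse 2 or 3, KO DOX mouse 20 or any 1 KO vehicle library was left out. Without KO DOX mouse 18 or 19, 2 of the other pathway genes passed, so at least 1 of these 2 calls was lost.

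Under DOX, 0 of the 42 genes passed between KO and WT hearts in edgeR's test, where 0.42% of all genes passed (0.19% higher and 0.23% lower). The unadjusted p was below 0.05 for 8 of the 42, all lower in KO (2285 of 14757 genes in either direction). DESeq2 called 2, Atp6v1h and Sqstm1 (4.76%, against 3.21% of all genes), and limma-voom called 6 (14.3%, against 6.71%). The median log2 value was -0.12, against 0.01 for all genes, and 32 of the 42 were negative. The groups did not overlap for 7 genes with KO lower and 1 with KO higher, against 19.6% of all genes (9.75% lower and 9.86% higher). The comparison shares its WT DOX libraries with that of DOX in WT.

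The p62 gene Sqstm1 had the largest difference of the 42, at 274, 408 and 294 CPM in KO DOX hearts and 316, 710 and 955 CPM in WT DOX hearts (log2 -1.02, SE 0.30, adjusted p = 0.145). The groups overlapped because WT DOX mouse 21 lay among the KO DOX hearts. Atp6v1h had 21.9, 23.5 and 23.3 CPM in KO DOX hearts and 26, 29.9 and 41.1 CPM in WT DOX hearts, with no overlap (log2 -0.50, SE 0.14, adjusted p = 0.139). Bnip3 (log2 -0.65, adjusted p = 0.259), Ctsl (-0.46, adjusted p = 0.207) and Lamp2 (-0.32, adjusted p = 0.27) were lower in KO with overlapping groups. The same held for Map1lc3b (-0.35, adjusted p = 0.298), while Map1lc3a (-0.41, adjusted p = 0.235) and Atp6v0d1 (-0.31, adjusted p = 0.223) were lower in every KO DOX heart than in every WT DOX heart.

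All 5 LC3 and GABARAP genes were again below 0, with a median of -0.35, and their summed level was 657, 729 and 659 CPM in KO DOX hearts and 758, 1025 and 847 CPM in WT DOX hearts. The 8 lysosomal genes had values from -0.46 to 0.00 and a median of -0.17, and the 4 V0 and accessory genes from -0.31 to -0.01. The 4 conjugation genes had a median of 0.07. Without WT DOX mouse 21, 5 of the 42 passed (11.9%, against 4.84% of all genes), all lower in KO, namely Atp6v1h, Ctsl, Gabarapl1, Lamp2 and Sqstm1. Of the 148 other pathway genes 0 passed, and 14 had an unadjusted p below 0.05. Neutrophil markers summed to 5.55, 5.45 and 6.32 CPM in KO DOX hearts, against 9.99, 41 and 32.9 CPM in WT DOX hearts, and macrophage markers to 390, 207 and 213 CPM in KO DOX hearts, against 339, 372 and 310 CPM in WT DOX hearts. Erythroid markers summed to 0.709, 213 and 60.7 CPM in KO DOX hearts, against 0.395, 0.146 and 0.144 CPM in WT DOX hearts, so that KO DOX mouse 18 lay near the WT DOX hearts. None of the 5 erythroid markers passed edgeR's test here, and 2 of the 7 neutrophil markers tested were lower in KO. The part of these cells in the differences was not tested.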

How the data were processed

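The authors deposited whole-number read counts per gene symbol, 1 table per library. The submitters' processing notes name fastp 0.20.0, STAR 2.7.0f, Subread 1.6.4 and featureCounts, and their settings, build, annotation and strandedness were not given in the sources used here. The labels' protocols describe a stranded kit for polyadenylated RNA.

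In R 4.3.3 with edgeR 4.0.16, filterByExpr kept 14757 genes, TMM set the scaling, and a quasi-likelihood model with a mean for each of the 4 groups was fitted to the 12 libraries together. P-values were adjusted by Benjamini-Hochberg over the 14757 genes and called at 0.05. Each SE follows from the log2 fold change and its F statistic. The biological coefficient of variation was 17.5%. With 23846398 to 32921876 counts per library, counting error was small for the more abundant of these genes. Every library carries its own mouse number, so p-values reflect the spread between mice, and no pair of replicates agreed within counting noise. The test was tried on simulated counts first. Depending on the comparison, 17% to 30% of simulated 1.5-fold changes and 72% to 81% of simulated 2-fold changes passed. A gene that did not pass may therefore still differ by 1.5-fold or less.

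The 42 genes and the other lists were chosen with earlier results of these data known. Values in every library are printed for genes called in any comparison and for 12 genes set by name, and from the other pathway lists up to 4 called genes per direction with the smallest p are named. Some of those genes are not reported here. Genes and sequences shown beyond these were chosen after their values were seen. Alternatives were DESeq2's size factors, no scaling, no filter, a minimum of 1 CPM in 3 libraries, limma-voom with quality weights (limma 3.58.1), DESeq2 1.42.0, a fit restricted to the groups compared, the title suffix as a term, and each library left out in turn. Positions and exon lengths were matched by symbol to GENCODE M21 on GRCm38 (54402 of 55453 symbols), and promoters to RefSeq on GRCm38.p6.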

Additional observations from a re-analysis of the deposited data

How the results depend on the processing

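Of the 42 genes, the count called for DOX in WT was 4 (9.52%, against 18.6% of all genes tested). It was 7 without scaling (16.7%, against 18.9%) and 8 without a filter (19%, against 11.8%). Without a filter, here and below, the share of all genes is over 29571 genes. These include the genes of low count that the filter removes, so that share is not like the others. It was 9 with DESeq2 (21.4%, against 23.3%) and 17 with limma-voom (40.5%, against 37.8%). In a fit of the WT libraries alone it was 0, where 0.141% of all genes passed. With the title suffix as a covariate it was 2 (4.76%, against 10.8%), Lamp2 and Tfeb. With KO DOX mouse 18 and KO vehicle mouse veh_3394, the pair high in atrial markers, left out together it was 2 (4.76%, against 12.8%). That fit was chosen after seeing the data. Leaving out 1 library gave 1 to 15. For KO against WT under vehicle the count was 0, and it was 2 without a filter (4.76%, against 7.06% of all genes). It was 3 with DESeq2 and 14 with limma-voom, with 0 to 6 when 1 library was left out. For KO against WT under DOX it was 0, and it was 5 without a filter (11.9%, against 3.9% of all genes). It was 2 with DESeq2 and 6 with limma-voom, with 0 to 5 when 1 library was left out. For the interaction it was 0, and it was 2 without a filter (4.76%, against 3.7% of all genes). It was 1 with DESeq2 and 6 with limma-voom, with 0 to 2 when 1 library was left out. For DOX in KO it was 0 in each of these fits. The cause of these shifts was not tested. The filter and the tool also moved the share of all genes called, which for DOX in WT was 37.8% with limma-voom and 23.3% with DESeq2. No called value changed sign under any alternative, and without TMM scaling the median of all genes for DOX in WT moved to 0.05. No paired analysis was possible because the groups share no mouse numbers. The interaction has no fit of 2 groups. The lowest CPM of the 42 in any library was 12.1, of Atg7, which had 272, 363 and 304 counts in WT vehicle mice 1, 2 and 3. Its spread between those mice, at 12.1, 12.5 and 12.1 CPM, was no larger than the counting error of such counts. Counting error was therefore not small beside the spread between mice for every gene and group. Reads from Map1lc3b and Ctsb may be shared with genes that overlap them on the opposite strand.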

Other observations

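WT vehicle mouse 2 held the highest CPM of the 12 libraries for 12 of the 42 genes and the lowest for 10, while WT DOX mouse 24 held the highest for 15. The mitochondrial share of the counts of WT vehicle mouse 2 was 19.5%, against 24.4% to 33.6% in the other libraries. The genes for which WT vehicle mouse 2 was highest include Map1lc3a, Gabarap, Gabarapl2, Pink1, Tfeb and Atp6v0b. Those for which it was lowest include Ulk1, Rb1cc1, Wipi1, Nbr1, Tollip and Lamp2.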
